A study of Rattus norvegicus with 24 samples.

Results

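Skeletal muscle fibres are excited through a small set of channels in the sarcolemma and transverse tubules, and 8 of their genes were followed through disuse, recovery and repeated disuse of the tibialis anterior (TA) of aged rats. The genes were Scn4a, Clcn1, Kcna7, Kcnn3, Kcnj2, Kcnj11, Kcnc4 and Lrrc38. They were chosen for their known roles in inactive muscle membrane, with earlier results of these data known, and the p-values below carry that limit. Kcna7 was also chosen by the size of its measured fall in these same libraries. The comparison of atrophy with control therefore describes the 8 genes and does not test them. Since the comparison behind the choice of Kcna7 was not recorded, this gene is given without a test in all comparisons that use limbs of TTX animals. Lrrc38 is also among the falling genes that the study itself pointed out in these libraries, so its direction is not independent evidence. All 8 were found, with 1 row each, among 14243 rows and 13458 gene symbols.

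RNA sequencing covered both TA muscles of 12 male Fischer 344 rats aged 23 ± 1 months, which gave 24 limbs. In the atrophy group (n = 3) tetrodotoxin (TTX) was delivered to the left common peroneal nerve for 6 to 7 days, in the recovery group (n = 3) the same period was followed by 9 days without TTX, and in the repeated atrophy group (n = 3) a second TTX period of 5 to 6 days came after the recovery. The control group was made of the 9 untreated right limbs of the same rats, and 3 sham animals, 1 for each time point, had the surgery without TTX. TTX blocks sodium channels of the nerve, so the dorsiflexors lose impulses while the nerve is not cut and the animal keeps walking, and the right limb is therefore a limb of a treated animal rather than of an untreated one.

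Scn4a encodes the voltage-gated sodium channel Nav1.4, which carries the upstroke of the muscle action potential. Clcn1 encodes the chloride channel ClC-1, which gives resting muscle most of its membrane conductance and damps repetitive firing. Potassium channels repolarize the fibre and hold its resting potential: Kcna7 (Kv1.7) and Kcnc4 (Kv3.4) are voltage-gated, Kcnj2 (Kir2.1) is an inward rectifier, Kcnj11 (Kir6.2) is the pore of the ATP-sensitive channel, Kcnn3 (SK3) is opened by calcium, and LRRC38 is an auxiliary subunit of the large-conductance calcium-activated channel. In muscle that has lost its nerve, the textbook picture is a fall of resting chloride conductance and an SK-type afterhyperpolarization that mature innervated fibres lack.

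Promoter sequences are shown for 4 of the genes, chosen because Clcn1 and Lrrc38 were lower and Kcnn3 was higher in repeated atrophy while Scn4a was not past the threshold there. Each window holds 250 bases before and 50 after the annotated start, 5′ to 3′ on the gene's own strand, from RefSeq (build GRCr8), and 6 of the 8 genes matched a window. Kcna7 and Kcnj11 did not. Capitals mark E-boxes (CANNTG, the core that myogenic factors such as myogenin bind) and matches to the MEF2 consensus. The windows are Clcn1 at chr4:72138928-72139227 (plus strand), Lrrc38 at chr5:160968540-160968839 (plus strand), Kcnn3 at chr2:177234090-177234389 (plus strand) and Scn4a at chr10:91796275-91796574 (minus strand).
Clcn1: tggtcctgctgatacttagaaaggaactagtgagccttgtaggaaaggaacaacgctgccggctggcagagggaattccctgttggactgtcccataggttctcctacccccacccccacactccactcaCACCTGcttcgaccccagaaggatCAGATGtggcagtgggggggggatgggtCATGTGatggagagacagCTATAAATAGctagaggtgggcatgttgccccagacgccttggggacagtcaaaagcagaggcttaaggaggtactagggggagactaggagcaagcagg
Lrrc38: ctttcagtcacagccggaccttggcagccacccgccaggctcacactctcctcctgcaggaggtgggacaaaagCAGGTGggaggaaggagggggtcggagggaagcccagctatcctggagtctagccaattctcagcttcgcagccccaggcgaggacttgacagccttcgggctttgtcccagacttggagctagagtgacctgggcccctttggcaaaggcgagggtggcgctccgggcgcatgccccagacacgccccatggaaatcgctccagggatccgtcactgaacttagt
Kcnn3: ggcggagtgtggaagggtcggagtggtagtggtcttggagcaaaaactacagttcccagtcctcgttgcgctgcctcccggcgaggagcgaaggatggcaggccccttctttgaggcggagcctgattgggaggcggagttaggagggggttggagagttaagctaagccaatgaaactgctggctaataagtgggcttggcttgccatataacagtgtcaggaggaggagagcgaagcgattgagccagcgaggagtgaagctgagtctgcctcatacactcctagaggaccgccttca
Scn4a: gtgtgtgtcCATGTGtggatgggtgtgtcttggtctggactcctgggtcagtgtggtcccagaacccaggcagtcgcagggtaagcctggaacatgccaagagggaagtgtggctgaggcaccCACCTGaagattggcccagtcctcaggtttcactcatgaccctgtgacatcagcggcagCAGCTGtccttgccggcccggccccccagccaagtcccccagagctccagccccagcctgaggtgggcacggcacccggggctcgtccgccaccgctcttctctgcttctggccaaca

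On both strands, Clcn1 held 3 E-boxes and 1 MEF2 consensus match, which starts at position -50 and overlaps a TATA box (TATAAA). Scn4a held 3 E-boxes, 1 of them CAGCTG, and Kcnj2 held 2, also with 1 CAGCTG. Lrrc38 held 1 E-box, and Kcnn3 and Kcnc4 held 0. Among 33469 rat promoter windows of the same length, 72.1% held an E-box, 15.1% held CAGCTG, 3.29% held the MEF2 consensus and 14.2% held TATAAA. Kcnn3 had 2 CCAAT boxes, and Scn4a, Kcnj2 and Lrrc38 had 1 each. Of all windows, 37.5% held at least 1. GC content of the 6 windows ran from 55.7% in Clcn1 to 67% in Kcnj2, above the median of 51.7% over all windows. These are letter matches and no binding was measured.

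Depth, read from the steps between the lowest values of a library, was 18.9 to 30.9 in units of 1000000 reads. The paper reports a higher number of aligned reads for the rat samples, and why the values differ was not examined. Values are CPM, read counts scaled to 1000000 per library, and 1 read was worth at most 0.053 CPM. The limbs carried the transcripts of muscle fibres: the 10 muscle fibre markers summed to between 154623 and 210242 CPM in control limbs. Some libraries stood apart and touch the values below. The left limb of atrophy animal 2 had a summed level of 870 CPM for the 9 denervation response markers, against 3742 and 3774 CPM in the other atrophy limbs and a control highest of 564 CPM. Both limbs of sham animal 3, the only sham of the repeated atrophy time point, were low in Lrrc38 and high in Kcnn3. The right limb of atrophy animal 3 was so too. In bulk tissue, fewer cells of a type and less RNA per cell cannot be told apart.

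In control limbs the channel genes spanned a wide range of levels per length of gene model. Kcnj11 was highest at 93.8 ± 17.8 CPM per kb (SD, n = 9), followed by Kcna7 at 62 ± 10.3, Kcnc4 at 61.8 ± 18.7, Scn4a at 47.9 ± 9.68 and Clcn1 at 33.1 ± 4.8 CPM per kb. Kcnn3 at 6.97 ± 2.89, Lrrc38 at 6.41 ± 2.75 and Kcnj2 at 2.38 ± 1.32 CPM per kb were lowest. Neighbours in this order overlapped in their control limbs except Clcn1 and Kcnn3, whose limbs were separated (lowest Clcn1 24.1, highest Kcnn3 13.1 CPM per kb). The Kcnj2 row covers a single block of 1284 bases, so its level counts only reads in that block. In repeated atrophy limbs the order differed: Kcnn3 stood at 44 ± 8.03 CPM per kb and Kcna7 at 6.96 ± 1.92 CPM per kb (SD, n = 3), with no overlap.

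**Figure D1:**
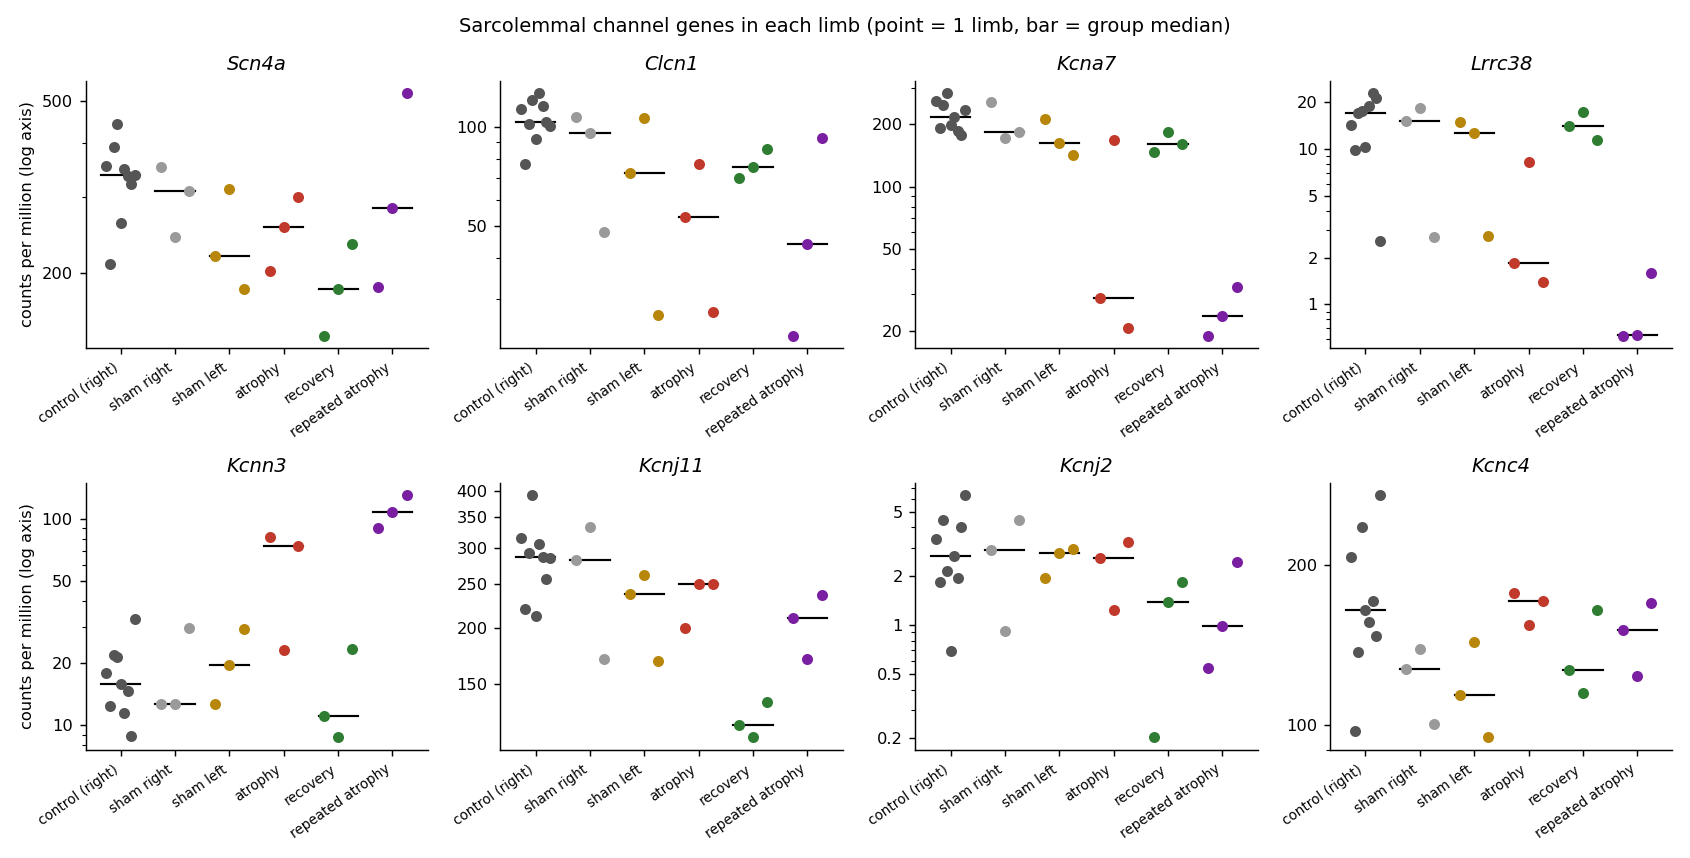
Level of each of the 8 channel genes in CPM (log axis) in all 24 limbs, by group, with 1 point per limb and a bar at the group median. Kcna7 and Lrrc38 are low and Kcnn3 is high in all 3 repeated atrophy limbs and in 2 of 3 atrophy limbs, whereas Kcnj11 is lowest in the recovery limbs.

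Kcna7 encodes Kv1.7, a voltage-gated potassium channel of striated muscle (chromosome 1, 95886073 to 95891566, rn7, plus strand, gene model of 3592 bases, coordinates as in the deposited table, which may count the first base from 0). In control limbs its level ran from 177 to 284 CPM with a median of 218 CPM. The 3 atrophy limbs held 28.8, 167 and 20.5 CPM, the recovery limbs 147, 184 and 161 CPM, and the repeated atrophy limbs 18.9, 23.7 and 32.5 CPM. Every repeated atrophy limb was below every control and recovery limb, while atrophy animal 2 stayed within the range of the recovery limbs. Sham left limbs held 212, 163 and 143 CPM and sham right limbs 258, 172 and 183 CPM.

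In repeated atrophy the mean of Kcna7 was 11.2% of that in control limbs. Its log2 fold change, on log2(CPM + 1) as for all fold changes here, was -3.12 (SE 0.39). The left limb differed from the animal's own right limb by -3.24 ± 0.13 (SD, n = 3 animals). Against the recovery limbs the log2 fold change of Kcna7 was -2.69 (SE 0.47), and -3.00 with the animal as a block term. In recovery against control it was -0.42 with a 95% interval from -1.24 to 0.39.

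In atrophy Kcna7 had a log2 fold change of -2.21 against control, the 10th lowest of 7152 rows with a mean of at least 10 CPM in either group, and its atrophy limbs did not overlap the control limbs. The left limb was lower than the right by 3.13, 0.25 and 3.46 on the log2 scale in atrophy animals 1, 2 and 3. Animals 1 and 3 were close to the repeated atrophy animals, whose differences ran from -3.34 to -3.09, and animal 2 was inside the range of the recovery animals, from -0.57 to -0.018.

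Lrrc38 (chromosome 5, 155685495 to 155707579, plus strand, 2350 bases) encodes a leucine-rich repeat protein that shifts the voltage range of large-conductance calcium-activated potassium channels. Control limbs ran from 2.58 to 23 CPM with a median of 17.1 CPM, the lowest being the right limb of atrophy animal 3. Atrophy limbs held 1.84, 8.22 and 1.4 CPM, recovery limbs 14.1, 17.4 and 11.4 CPM, and repeated atrophy limbs 0.628, 0.638 and 1.6 CPM. The repeated atrophy limbs lay below every control, recovery and sham limb, and recovery limbs lay within the control range.

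Repeated atrophy limbs held 6.35% of the control mean of Lrrc38. The study had already pointed out this fall in the same libraries, so the p-values below describe Lrrc38 and are not independent evidence. The log2 fold change was -2.91 (SE 0.47, limma adjusted p = 2.7e-04) against control, -3.02 within animals (block adjusted p = 0.0023) and -2.99 (SE 0.58, adjusted p = 0.0022) against recovery, where the block gave -2.47 (adjusted p = 0.088). Recovery against atrophy was higher by 1.93 (SE 0.58, limma adjusted p = 0.029), but only by 0.56 (adjusted p = 0.81) with the animal as a block. It also missed the threshold without atrophy animal 1, recovery animal 1 or recovery animal 2 (adjusted p = 0.094 to 0.11). Recovery did not differ detectably from control (0.08, adjusted p = 0.94, 95% interval -0.91 to 1.07), and the sign turned to -0.17 without that right limb. Within animals the left limb was lower than the right in all 3 recovery animals, by a mean difference of -0.55 ± 0.27 (SD, n = 3; block adjusted p = 0.44). Sham animal 3 held 2.76 CPM on the left and 2.72 CPM on the right, so low Lrrc38 also occurred in limbs without TTX.

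Kcnn3 (chromosome 2, 174936635 to 175081150, plus strand, 2506 bases) encodes SK3, the apamin-sensitive calcium-activated potassium channel known from denervated and immature muscle. Control limbs ran from 8.82 to 32.9 CPM with a median of 15.8 CPM. Atrophy limbs held 81.6, 23.3 and 74 CPM, recovery limbs 11.1, 8.72 and 23.5 CPM, and repeated atrophy limbs 90.9, 109 and 131 CPM. All repeated atrophy limbs were above all other limbs of the series, the atrophy limbs included, and the recovery limbs lay in or just below the control range.

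Kcnn3 was 6.31-fold of the control mean in repeated atrophy (log2 fold change 2.67, SE 0.37, limma adjusted p = 1.1e-04, and 2.53 within animals, block adjusted p = 0.0035). Against recovery it was higher by 2.95 (SE 0.46, adjusted p = 8.5e-04), and with the block by 2.33 (adjusted p = 0.092), a fit in which 0.0855% of all rows passed. From atrophy to recovery it fell by 1.90 on the log2 scale (SE 0.46, limma adjusted p = 0.012), while the block gave -1.07 with an adjusted p = 0.63, and the call was lost without atrophy animal 1, recovery animal 1 or recovery animal 2 (adjusted p = 0.061 to 0.078). The second atrophy exceeded the first by 1.05 (SE 0.46), which did not pass the correction over all rows (limma adjusted p = 0.73) although the limbs did not overlap, which held for 7.02% of all rows in that comparison.

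**Figure D2:**
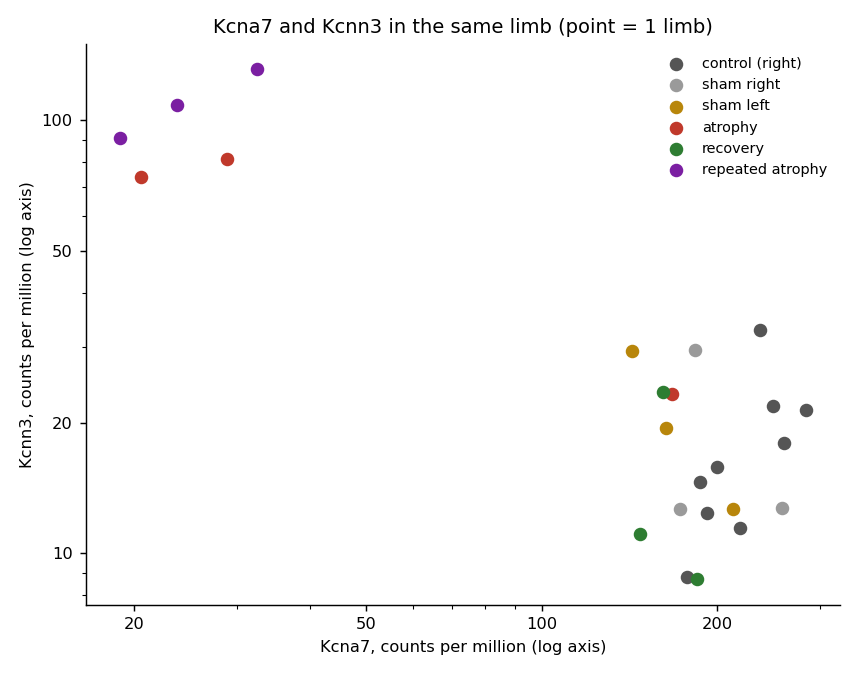
Level of Kcnn3 against that of Kcna7 in CPM in the same limb (both axes log), with 1 point for each of the 24 limbs, coloured by group. The 3 repeated atrophy limbs and atrophy animals 1 and 3 lie at low Kcna7 and high Kcnn3, and the left limb of atrophy animal 2 lies among the limbs without a current TTX block.

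Clcn1 (chromosome 4, 71172547 to 71199985, plus strand, 3197 bases) encodes ClC-1, the main chloride channel of the fibre. Control limbs ran from 77 to 127 CPM with a median of 103 CPM. Atrophy limbs held 53.5, 77.3 and 27.6 CPM, recovery limbs 69.9, 75.6 and 85.6 CPM, and repeated atrophy limbs 23.3, 44.1 and 92.9 CPM. Repeated atrophy animal 3 lay within the control range and the other two lay below it, so the groups overlapped. The log2 fold change was -1.17 (SE 0.30, limma adjusted p = 0.0058), with -1.08 and an adjusted p = 0.023 under the animal block, and -0.75 (adjusted p = 0.054) without repeated atrophy animal 1. In all 3 atrophy, all 3 recovery and all 3 repeated atrophy animals the left limb was lower than the right. Recovery against control did not pass (-0.44, adjusted p = 0.38, 95% interval -1.07 to 0.19), and repeated atrophy against recovery passed after rescaling (-1.09, adjusted p = 0.044, against -0.73 and 0.15 as deposited) or without repeated atrophy animal 3 (-1.23, adjusted p = 0.021). Sham animal 3, the only sham of the repeated atrophy time point, was low in Clcn1 on both sides, at 26.8 and 48.2 CPM. The part of time or surgery in the Clcn1 values was not tested.

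Kcnj11 (chromosome 1, 96591049 to 96594083, minus strand, 3034 bases) followed another course and was lowest in recovery. Control limbs ran from 212 to 391.9 CPM with a median of 286 CPM. Atrophy limbs held 199.9, 249 and 249 CPM, recovery limbs 122, 115 and 137 CPM, and repeated atrophy limbs 209.8, 170.3 and 236 CPM. The recovery limbs lay below all 21 other limbs. Kcnj11 was lower in recovery than in control by a log2 fold change of -1.17 (SE 0.16, limma adjusted p = 0.0011), that is 43.7% of the control mean, and the within-animal difference was -1.18 ± 0.24 (SD, n = 3), with a block adjusted p = 0.075.

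Against the first atrophy, recovery was lower in Kcnj11 by -0.89 (SE 0.20, limma adjusted p = 0.0098; with rescaled values -0.54, adjusted p = 0.13; with the block -0.97, adjusted p = 0.59), and the call was lost without recovery animal 1 or 2 (adjusted p = 0.052 and 0.059). Repeated atrophy against recovery was higher by 0.71 (SE 0.20, adjusted p = 0.014), a call lost on rescaled values (0.35, adjusted p = 0.30), with the block (0.65, adjusted p = 0.24) and without recovery animal 1 or 2 (adjusted p = 0.059 and 0.074). Repeated atrophy against control was lower by -0.46 (SE 0.16, adjusted p = 0.036), and the block gave -0.52 with an adjusted p = 0.079. Without repeated atrophy animal 2 it was -0.32 (adjusted p = 0.27), and 5 further alternatives gave an adjusted p of 0.055 to 0.084. The fibroblast markers, 4 of 5 of which rose in recovery beside 4.4% of all rows, summed to between 594 and 987 CPM in recovery limbs and to between 153 and 369 CPM in control limbs. Macrophage markers, 3 of 6 of which rose, summed to between 78.6 and 161 CPM against 28.8 and 97.6 CPM. Muscle fibre markers summed to between 163268 and 181589 CPM in recovery, inside the control range. The part of these cells in the fall of Kcnj11 was not tested.

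Scn4a (chromosome 10, 91246936 to 91296546, minus strand, 6959 bases) did not pass the threshold in any comparison as deposited. Control limbs ran from 209.8 to 441 CPM with a median of 338 CPM, atrophy limbs held 202, 256 and 299.5 CPM, recovery limbs 143, 184 and 234 CPM, and repeated atrophy limbs 186, 283 and 521 CPM. The repeated atrophy limbs spread across and beyond the control range, and the recovery limbs lay at or below its lower end. Recovery against control gave -0.83 (SE 0.25, limma adjusted p = 0.051, 95% interval -1.36 to -0.30), which passed on rescaled values (-0.85, adjusted p = 0.030) or without repeated atrophy animal 1 (-0.91, adjusted p = 0.015), repeated atrophy animal 3 (-0.78, adjusted p = 0.035) or atrophy animal 2 (-0.87, adjusted p = 0.044), and not with the fixed block (-0.86, adjusted p = 0.12). Repeated atrophy against control gave -0.11 with an interval from -0.64 to 0.42, and against recovery 0.72 (adjusted p = 0.092), which passed without repeated atrophy animal 1 (1.06, adjusted p = 0.014).

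Kcnc4 encodes Kv3.4, a fast voltage-gated potassium channel (chromosome 2, 195078972 to 195099234, minus strand, 2858 bases). Its control limbs ran from 97.5 to 272 CPM, and its repeated atrophy limbs held 151, 124 and 170.2 CPM, all inside that range. The difference between repeated atrophy and control was -0.20 (95% interval -0.68 to 0.27, limma adjusted p = 0.54) as deposited and -0.59 (adjusted p = 0.042) after rescaling, so its side of the threshold depended on the scaling. Within animals the left limb differed from the right by 0.63, -0.15 and -0.47, a mean of 0.0022 (block adjusted p = 1.0). Kcnj2 encodes Kir2.1, the classical inward rectifier that stabilizes the resting potential (chromosome 10, 96066275 to 96067559, plus strand). Its limbs ran from 0.202 to 6.36 CPM, and repeated atrophy limbs held 0.544, 0.993 and 2.44 CPM against a control median of 2.68 CPM. The difference was -0.77 (95% interval -1.55 to 0.01, limma adjusted p = 0.12), and it passed on rescaled values (-1.01, adjusted p = 0.0496) and without atrophy animal 2 (-0.91, adjusted p = 0.035).

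**Figure D3:**
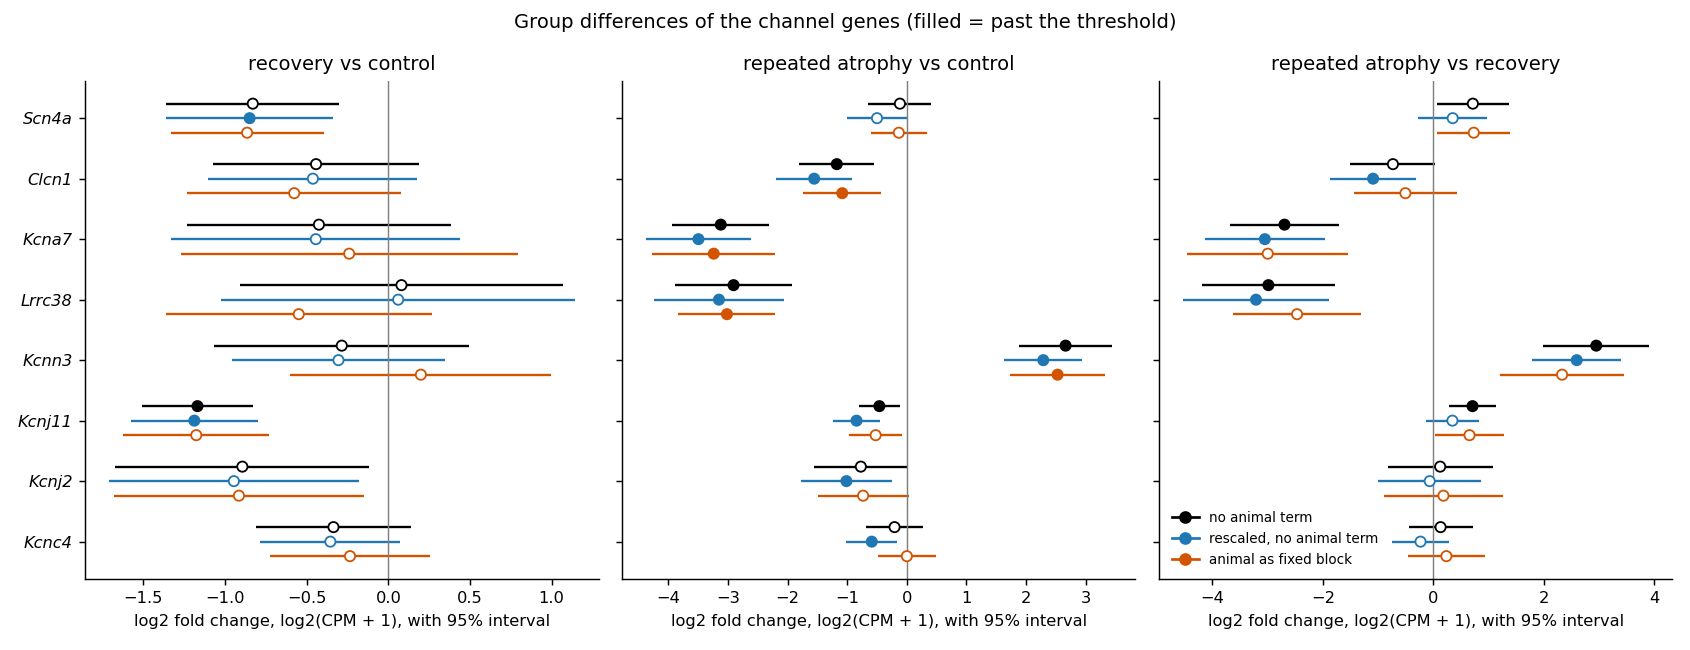
Log2 fold change of each channel gene with its 95% interval in recovery against control, repeated atrophy against control and repeated atrophy against recovery, from values as deposited, from rescaled values, and with the animal as a fixed block. Filled points were past the threshold, which for Kcna7 and Lrrc38 is a description. Kcna7, Lrrc38, Clcn1 and Kcnn3 are filled in all 3 fits of repeated atrophy against control.

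The threshold combined a minimum fold change of 1.2 with a maximum adjusted p of 0.05, from limma with Benjamini-Hochberg adjustment over all rows. In repeated atrophy against control, 5 of the 8 channel genes were past it, Kcnn3 upwards and Lrrc38, Kcna7, Clcn1 and Kcnj11 downwards. Kcna7 stands in this and the following counts as a description, as does Lrrc38, whose fall the study had pointed out. Over all rows 34.3% passed, 28.1% upwards and 6.24% downwards, and the median log2 fold change was -0.61 for the 8 genes and 0.20 over all rows. After rescaling with trimmed means of log ratios, which removed that shift of all rows, 7 of 8 passed (1 up, 6 down) against 13.1% up and 12.1% down over all rows. Without both limbs of atrophy animal 2 the count was 6 of 8, and without the right limb of atrophy animal 3 it was 5 of 8, beside 37.4% of all rows in each of these fits. With the animal as a block, 4 of 8 passed, Kcnj11 dropping out, against 27.1% of all rows. The limbs of 3 of the 8 genes, Kcna7, Lrrc38 and Kcnn3, did not overlap control, as in 20.4% of all rows.

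In repeated atrophy against recovery 4 of 8 passed, Kcnn3 and Kcnj11 upwards and Kcna7 and Lrrc38 downwards, against 27.2% of all rows (21% up, 6.29% down). On rescaled values the split was 1 up and 3 down, beside 10.3% up and 11.3% down over all rows, and with the block 0 of 8 passed, beside 0.0855% of all rows, with Lrrc38, Scn4a, Kcnn3 and Kcnj11 at an unadjusted p under 0.05. The limbs of the same 4 genes did not overlap, as in 42.5% of all rows. In recovery against control 1 of 8 passed, Kcnj11 downwards, beside 7.73% of all rows (3.33% downwards), and in the block 0 of 8 passed beside 0.0641%, with 3 of 8 (Scn4a, Kcnj2 and Kcnj11) at an unadjusted p under 0.05. Its limbs did not overlap control, as in 10.4% of all rows.

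In recovery against atrophy 4 of 8 were past the threshold (Lrrc38 and Kcna7 up, Kcnn3 and Kcnj11 down, beside 17.9% of all rows, 3.34% up and 14.5% down), and 0 of 8 with the block (0.0143% of all rows; Kcnj11 at an unadjusted p under 0.05). Repeated atrophy against initial atrophy gave 0 of 8 in limma (1 of 8, Kcnn3, at an unadjusted p under 0.05), with 0.0356% of all rows past the threshold. In atrophy against control 4 of 8 lay past the threshold of the same fit (1 up, 3 down) beside 22.6% of all rows (20.3% up, 2.33% down), and 1 gene did not overlap beside 5.27%. On rescaled values the count was 5 of 8 (1 up, 4 down) beside 4.53% up and 5.15% down, and with the block in limma it was 0 of 8 beside 0% of all rows, with Lrrc38, Clcn1 and Kcnn3 at an unadjusted p under 0.05. Nothing is read from these counts.

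In sham left limbs without TTX, no channel gene passed against control (0 of 8 in limma beside 0% of all rows). Kcnc4, Clcn1 and Scn4a were there at an unadjusted p under 0.05, with Kcna7 left out of this list. Against the right limbs of the same sham animals 0 of 8 passed beside 0% of all rows, with Kcna7 at an unadjusted p under 0.05. Sham left limbs held 77.6% of the control mean of Kcna7, 64.9% of that of Clcn1 and 117% of that of Kcnn3. The median log2 fold change of the 8 genes in sham left against control was -0.43, beside 0.17 over all rows, with 7 of 8 below 0. Against the sham right limbs these medians were -0.18 and 0.02, and in recovery against control -0.43 and 0.02. The difference of Clcn1 between sham left and control was -0.81 with a 95% interval from -1.44 to -0.18 (limma adjusted p = 0.32), an interval that includes the size seen in repeated atrophy.

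**Figure D4:**
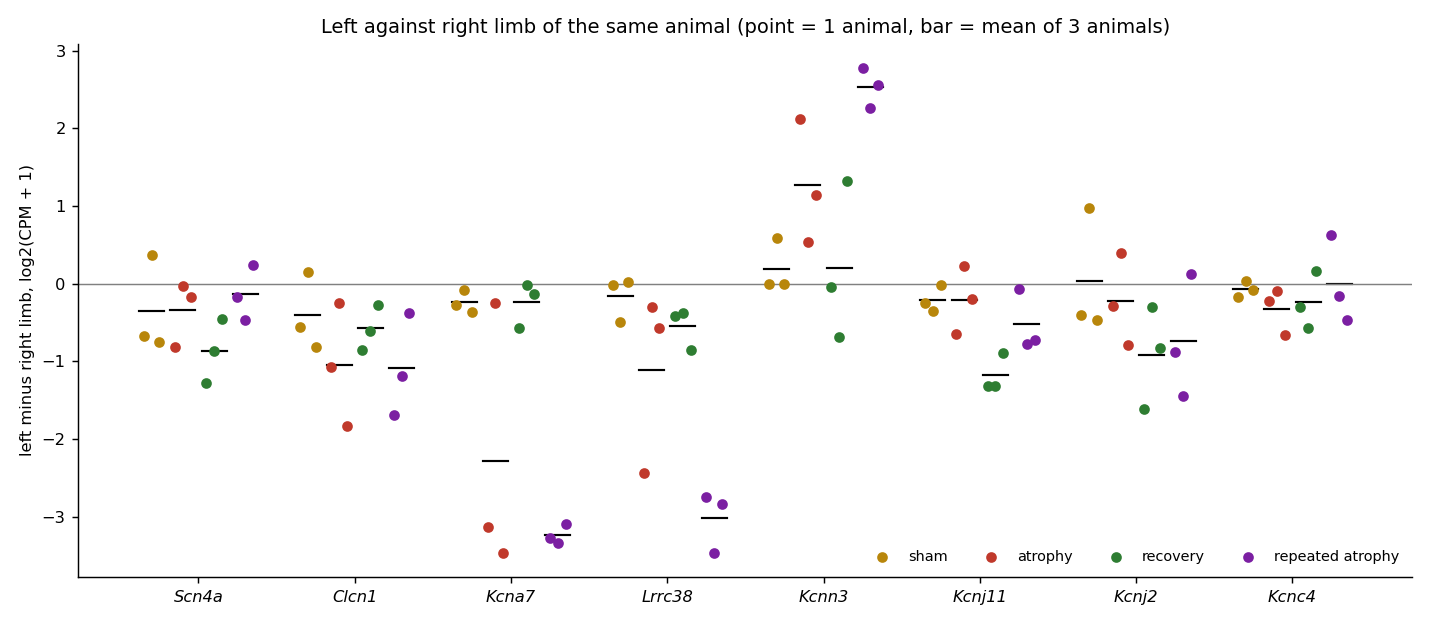
Left minus right limb of the same animal on log2(CPM + 1) for each channel gene, with 1 point per animal and a bar at the mean of 3 animals, for sham, atrophy, recovery and repeated atrophy animals. In repeated atrophy all 3 animals lie near -3 for Kcna7 and Lrrc38 and above 2 for Kcnn3, and in recovery all 3 lie below 0 for Kcnj11.

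Other ion-handling genes were counted from 8 lists of channels, pumps and regulators. In repeated atrophy against control 31 of 130 tested genes passed (23.8%, 18 up and 13 down), beside 34.3% of all rows (28.1% up and 6.24% down). After rescaling 28 passed, with 9 up and 19 down, beside 13.1% up and 12.1% down over all rows. With the animal as a block 25 passed, with 11 up and 14 down, beside 21.5% up and 5.66% down over all rows. The lists do not include the 8 channel genes. By list, 2 of 10 sodium channel genes, 4 of 18 chloride channel genes, 5 of 33 voltage-gated potassium channel genes, 1 of 11 calcium-activated potassium channel genes, 4 of 11 inward rectifier and ATP-sensitive channel genes and 0 of 8 two-pore potassium channel genes passed in limma (0 at an unadjusted p under 0.05, and 1 after rescaling or with the block). Of the pump and transport genes 6 of 16 passed (37.5%), and of the channel regulators 9 of 23 (39.1%), both near the 34.3% of all rows.

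Among sodium channels, Scn4b, a beta subunit, fell by 2.25 on the log2 scale (SE 0.26, limma adjusted p = 3.2e-05), from a control median of 667 CPM to 123 CPM, with all repeated atrophy limbs below control. In the same limbs Scn4a ran from 186 to 521 CPM. Scn3a rose by 0.96 (adjusted p = 0.012) from a low level, a call lost on rescaled values (0.62, adjusted p = 0.074), with the block (0.71, adjusted p = 0.21) and without repeated atrophy animal 3 (0.81, adjusted p = 0.089).

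Of the potassium channels, Kcnj12, the gene of the inward rectifier Kir2.2, fell in repeated atrophy by 2.11 on the log2 scale (SE 0.25, limma adjusted p = 3.8e-05), from a control mean of 100.4 CPM to 22.5 CPM. It was also lower in recovery, at 35.4 to 39.5 CPM, with a log2 fold change of -1.37 (SE 0.25, limma adjusted p = 0.0044; with the block -1.31, adjusted p = 0.10). Kcnj12 and Kcnj11 were thus both below all control limbs in recovery. Voltage-gated Kcnq5 (1.74, adjusted p = 0.0022) rose in repeated atrophy and low-level Kcnc1 fell (-1.43, adjusted p = 0.0028). Kcnip2, a subunit of fast Kv4 channels, rose by 1.201 (adjusted p = 0.021) and missed the threshold on rescaled values (0.89, adjusted p = 0.064), with the block (1.27, adjusted p = 0.053) and without repeated atrophy animal 2 (0.91, adjusted p = 0.18) or 3 (0.67, adjusted p = 0.24). Kcne3 was near its detection level, at 0.091 CPM against 0.218 CPM (-0.15, adjusted p = 0.61). Kcnma1, the pore of the large-conductance calcium-activated channel to which LRRC38 binds, rose by 1.32 (SE 0.28, limma adjusted p = 0.0019), from a control mean of 4.93 CPM to 13.4 CPM. Lrrc52, a related auxiliary subunit, was near its detection level, listed at 0 in all 3 repeated atrophy limbs and at a mean of 0.157 CPM with a lowest limb at 0 in control (-0.20, adjusted p = 0.45), and Kcnn2, the SK2 gene, held a mean of 0.192 CPM against 0.983 CPM (log2 fold change -0.64, adjusted p = 0.086, and -0.74, adjusted p = 0.033, without the right limb of atrophy animal 3). Abcc9, a regulatory subunit of ATP-sensitive channels, rose by 0.80 (adjusted p = 0.0081) as deposited and missed the threshold after rescaling (0.42, adjusted p = 0.084) and with the block (0.82, adjusted p = 0.051). Kcnj8, the Kir6.1 gene, gave -0.45 (adjusted p = 0.22).

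The chloride channel genes other than Clcn1 that passed were Ostm1, Ano1, Best3 and Lrrc8d, all upwards by 0.52 to 0.88 on the log2 scale, and all 4 lost the call on rescaled values (0.17 to 0.52). With the block Ano1 (0.41, adjusted p = 0.22) and Lrrc8d (0.42, adjusted p = 0.25) missed the threshold as well. Lrrc8d was also above all control limbs in the 3 sham left limbs without TTX (0.59, limma adjusted p = 0.25), and Ano1 there gave 0.41 (adjusted p = 0.39). Of the sodium pump beta subunit genes, Atp1b3 rose (1.05) and Atp1b2 fell (-1.25). Fxyd1, the gene of the pump regulator phospholemman, fell (-0.73), as did Atp1b4 (-2.05), whose product in placental mammals is a muscle nuclear membrane protein without a pump role. The sodium-calcium exchanger gene Slc8a3 gave -0.71 (adjusted p = 0.036), a call lost when any of 6 animals was left out (-0.55, adjusted p = 0.23, without repeated atrophy animal 2). In recovery Atp1b4 ran from 46.3 to 56.8 CPM, above all control limbs at 3.64 to 19 CPM (log2 fold change 2.25, SE 0.43, limma adjusted p = 0.0058, with the block 1.79, adjusted p = 0.075). The potassium-chloride cotransporter gene Slc12a4 rose by 2.02 (SE 0.42, limma adjusted p = 0.0016).

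Of the regulators, Prkcq, the gene of protein kinase C theta, fell by 1.22 on the log2 scale (SE 0.23, limma adjusted p = 6.9e-04). Mbnl1, a splicing factor that acts on Clcn1 transcripts, fell by 1.62 (adjusted p = 0.0068), Camk2a by 1.23 and the ankyrin gene Ank1 by 1.58. Sham left limbs without TTX had a mean of 18 CPM of Ank1 against 30.7 CPM in control. For Camk2a these means were 19.8 and 30.6 CPM, and for the pump gene Atp1b2 303 and 477 CPM. Prkcq (129.8 and 130.5 CPM) and Mbnl1 (11.8 and 13.1 CPM) were closer to control there. Without repeated atrophy animal 2, Mbnl1 (adjusted p = 0.054), Camk2a (0.066) and the pump gene Atp1b2 (0.056) missed the threshold. Without repeated atrophy animal 2 the count over all lists was 21. The share of all rows in that fit is not given, so nothing is read from this count. The ubiquitin ligase gene Nedd4 rose by 1.19 (SE 0.24, limma adjusted p = 0.0012) and Fgf13, whose product binds sodium channels, by 1.202. Nedd4l gave 0.01 (adjusted p = 0.97) and Dmpk, the myotonic dystrophy kinase gene, -0.46 (adjusted p = 0.087, on rescaled values -0.84 and 0.012, without repeated atrophy animal 1 -0.64 and 0.032).

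**Figure D5:**
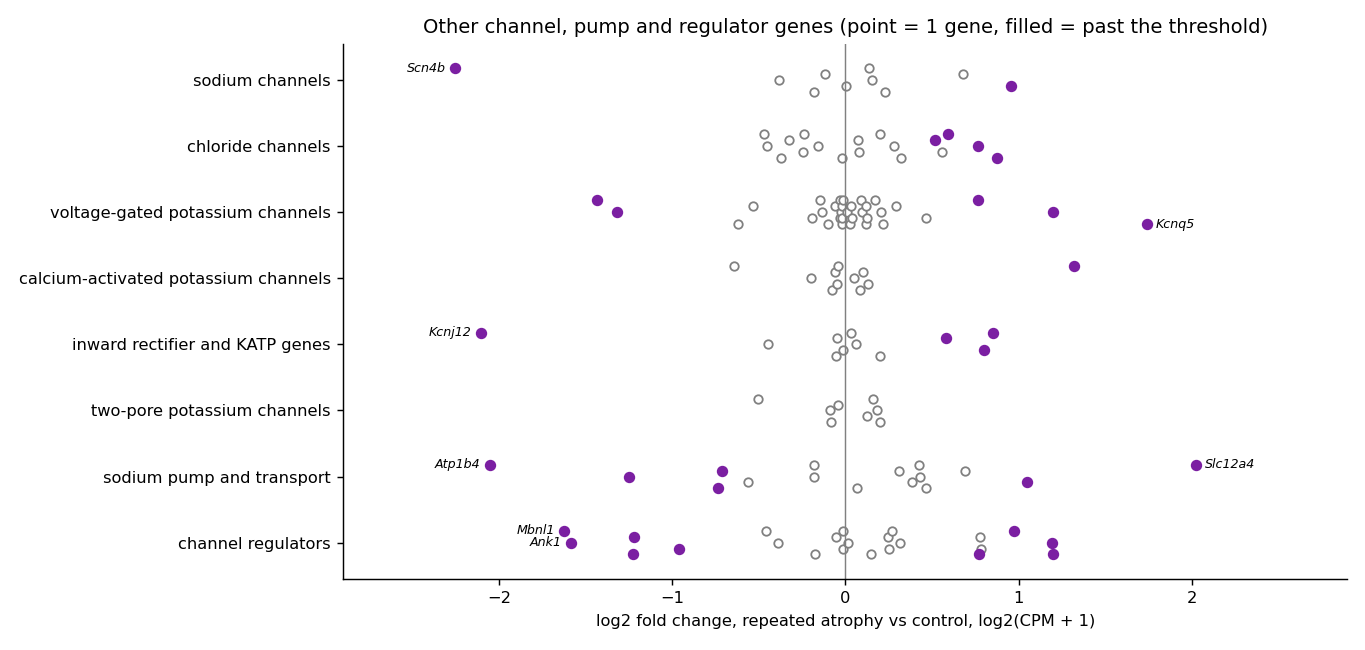
Log2 fold change of the 130 tested genes of the 8 lists in repeated atrophy against control on log2(CPM + 1), with 1 point per gene by list, filled where the gene passed the threshold. Slc12a4 lies furthest to the right at 2.02 and Scn4b furthest to the left at -2.25, and no two-pore potassium channel gene is filled.

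Markers of inactive muscle moved with these changes. Of 9 denervation response markers, 8 rose and Hdac9 fell in repeated atrophy, beside 28.1% of all rows up and 6.24% down, and their summed level was 4384 to 5177 CPM against 103 to 564 CPM in control limbs. Muscle fibre markers summed to between 97728 and 130380 CPM in repeated atrophy, below the control limbs, with 1 of 10 past the threshold (Myh7, downwards). The 10 highest rows held 15.6% to 19.2% of a repeated atrophy library and 24.3% to 32.7% of a control library. Of the other cell types, 1 of 9 Schwann cell and nerve markers (Nefm, upwards) and 2 of 4 satellite cell markers (Myf5 upwards, Cdh15 downwards) passed, where 34.3% of all rows did. None of the 5 endothelial, 5 smooth muscle and pericyte, 6 macrophage, 5 fibroblast or 4 adipocyte markers passed in repeated atrophy against control in limma (0 of 25, and 0 at an unadjusted p under 0.05). No marker was at 0 in every limb of a group. The part of these shifts in the channel values was not tested.

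Rows with the courses most like each channel gene were ranked over the 24 limbs by the root mean square difference on log2(CPM + 1), each row relative to its control mean, among 6758 rows with a mean of at least 10 CPM. Kcna7 was nearest to Wipf3 (0.36), Pfkfb1 (0.39) and Rasgrp3 (0.42), and Kcnn3 to Otulin (0.31), Slc29a1 (0.34) and Impdh1 (0.34). Kcnj11 was nearest to Atg9a (0.21), Syngr2 (0.21) and Spns1 (0.23), and Scn4a to Atg2a (0.20), Man2a2 (0.21) and Usp19 (0.22). Lrrc38 was nearest to Ramp1 (0.41), Afap1l1 (0.42) and Gpd1 (0.43), and Clcn1 to Mmp15 (0.31), Slc25a23 (0.32) and Camk2a (0.33). Kcnc4 was nearest to Sgca (0.26), Dyrk1b (0.27) and Fam234a (0.27), and Kcnj2 to Arhgef37 (0.38), Slc9a8 (0.39) and Eif5 (0.41). The limbs share animals and libraries, so these distances describe this series only.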

How the data were processed

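RNA was taken from both TA muscles of 12 rats. The authors removed contaminant reads with bowtie2 2.2.5, ran STAR against rn7 for the rest within Partek Flow, per the labels and the methods. Which annotation and counting method were used is not given in the sources used here. The deposited values are CPM (each column sums to 1000000), where the methods speak of median-of-ratios scaling, so tests for normalized values were used. Of 27 value columns, 3 name controls of another run with no matching sample record and were not used. The 28 duplicate rows were dropped. Between 86.7% and 88.2% of the low values per limb were whole multiples of the smallest step, so reads were not recovered and no count test was run.

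Rows above 0 in at least 3 fitted limbs were tested with limma 3.58.1 (intensity trend, R 4.3.3) on log2(CPM + 1), with the 18 limbs of the TTX animals in 1 fit. Sham limbs were fitted apart. Left and right limbs are paired by animal in the labels; the deviations of the 2 limbs from their group means correlated by -0.32 to 0.53 over the 9 TTX animals (mean 0.12). The animal was fitted as a fixed block, which compares treatments within animals, as an alternative. Other alternatives were other pseudocounts (0.1, 10), scalings, filters, controls and leaving out animals. The fits were also run on simulated data with independent limbs, no animal effect and as many rises as falls. These settings differ from the paired limbs and the shift of all rows here, so no conclusion is drawn from that run. The channel genes and gene lists were chosen with earlier results of these data known. Kcna7 was fitted with all rows. In comparisons that use limbs of TTX animals its p-values are not printed and it is left out of the counts at an unadjusted p. It enters the counts past the threshold as a description. Named were the 8 channel genes, up to 6 genes per list past the threshold in repeated atrophy against control with a mean of at least 5 CPM in either group, in order of absolute fold change, and 13 genes given always; 5 genes of the lists are not reported here and stand in no list count, ranking or figure. Promoters came from RefSeq GRCr8, a different build from the table's rn7. Separate animals were sampled in each group, and 3 limbs per group limit the precision.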

Additional observations from a re-analysis of the deposited data

Results flagged for a closer look

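In the 9 control limbs, 38 genes named here were checked for a limb far from the others, by its gap to the nearest limb as a share of the whole range. The check used CPM. None of the 8 channel genes had such a limb, and 7 of the other genes did, where chance marks about 1 in 20. The log2(CPM + 1) scale of the fits was not checked in this way. On that scale Lrrc38 stood at 1.84 in the right limb of atrophy animal 3. Its next lowest control limb stood at 3.45 and its highest at 4.58. In the right limb of atrophy animal 3, Scn4b was lowest at 402.5 CPM (share 0.635), Fxyd1 was lowest at 65.5 CPM (share 0.573), Kcnma1 was highest at 10.1 CPM (share 0.587) and Slc12a4 was highest at 97.2 CPM (share 0.634). In the right limb of atrophy animal 2, Abcc9 was highest at 139 CPM (share 0.719), Atp1b3 was highest at 97.6 CPM (share 0.543) and Fgf13 was highest at 54.8 CPM (share 0.494). All 7 genes lay, in these limbs, on the side to which they moved in repeated atrophy.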

How the results depend on the processing

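The number of the 8 channel genes past the threshold in repeated atrophy against control stayed within 1.5 times of 5 under every alternative run (4 to 6 when leaving out an animal), and sham against control stayed at 0. In recovery against control the count of 1 became 2 on values rescaled by trimmed means of log ratios (TMM) or the median of ratios, with a mean CPM of at least 1, a random animal block, all 12 right limbs as control, only the groups compared, or rows of a symbol summed, and 0 with a fixed animal block (1 to 2 when leaving out an animal). The added gene was Scn4a. In recovery against atrophy the count of 4 became 2 with only the groups compared, 0 with the replicate block and 1 with the block without atrophy animal 2, and ran from 0 to 4 when leaving out an animal: 0 without recovery animal 1 or 2, and 1 without atrophy animal 1. In repeated atrophy against recovery the count of 4 became 0 with the replicate block, and ran from 3 to 5 when leaving out an animal. The cause of these shifts was not tested. For most fits that leave out an animal the share of all rows past the threshold is not given, so nothing about the channel genes is read from those counts.

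The values whose sign turned were of genes that did not pass the threshold in that comparison. With the replicate block the log2 fold changes became 0.20 for Kcnn3 and -0.55 for Lrrc38 (recovery against control), 0.00 (0.0022) for Kcnc4 (repeated atrophy against control), and for Kcnc4 0.093 (recovery against atrophy; 0.21 without atrophy animal 2) and 0.33 (repeated against initial atrophy; 0.45 without atrophy animal 2). For Kcnc4 in recovery against atrophy, TMM gave 0.039, the median of ratios 0.045 and quantile normalization 0.15; in repeated atrophy against recovery they gave -0.23, -0.24 and -0.35. Kcnj2 in repeated atrophy against recovery became -0.066 with TMM and -0.069 with the median of ratios, and ran from -0.25 to 0.38 when leaving out an animal, below 0 without repeated atrophy animal 3 (-0.20) or recovery animal 1 (-0.25). Lrrc38 in recovery against control ran from -0.17 to 0.30 when leaving out an animal, -0.17 without atrophy animal 3 and also without its right limb alone. Scn4a ran from -0.45 to 0.15 in repeated atrophy against control, above 0 without repeated atrophy animal 1, and from -0.12 to 0.62 in repeated against initial atrophy, below 0 without repeated atrophy animal 3. Clcn1 in repeated against initial atrophy ran from -0.58 to 0.39, above 0 without repeated atrophy animal 1 or atrophy animal 2 (0.25), and was 0.37 with the block without the latter. In sham left against control, Kcnn3 became -0.013 with quantile normalization and ran from -0.051 without sham animal 3 to 0.53, Kcnj2 became 0.034 without atrophy animal 3 or its right limb and 0.043 without sham animal 1, and Lrrc38 ran from -0.99 to 0.054, above 0 without sham animal 3. Nedd4l in repeated atrophy against control became -0.36 under all 3 scalings and -0.0028 with 12 right limbs, and ran from -0.098 to 0.14 when leaving out an animal, below 0 without atrophy animal 1 (-0.023) or repeated atrophy animal 2 (-0.098) or 3 (-0.092). Leaving out the right limb of atrophy animal 3 and the block without atrophy animal 2 were chosen after seeing the data.

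Rescaling shifted the median of all rows from 0.20 to -0.01 in repeated atrophy against control. The 3 genes most like each channel gene were kept on rescaled values, except 2 of 3 for Lrrc38.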
